A study of Mus musculus with 12 samples.

Results

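Genes of respiratory complexes II to V that are encoded in the nucleus were followed in cardiac RNA-seq of mice labelled wild type (WT) or EGFR KO, a knockout of the epidermal growth factor receptor, a receptor tyrosine kinase. They were chosen by symbol, as every row whose gene begins with Sdh and a, b, c or d, with Uqcr, Cox4i, Cox5, Cox6, Cox7, Cox8 or Atp5, or is Cyc1 or Cycs. This rule took 53 of the 24340 rows of each gene table. Of these, 46 encode structural subunits or cytochrome c. The other 7, namely Sdhaf1, Sdhaf2, Sdhaf3, Sdhaf4, Cox7a2l, Atp5s and Atp5sl, share the names but are assembly or associated factors.

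The samples came from cardiac cells of mice, as the labels put it, and formed 4 groups of 3 in all. The groups used here were WT at 7 weeks of age (7wkWT), EGFR KO at 7 weeks (7wkKO) and EGFR KO at 9 weeks (9wkKO). WT at 9 weeks (9wkWT) was not analysed here. Age and the course of the knockout therefore cannot be told apart between 7wkKO and 9wkKO. The promoter or Cre that drove the deletion, the part of Egfr that was deleted and any pooling of animals were not stated in the sources used here, and the labels do not say whether the 3 samples of each group were separate animals. The p-values then measure the spread between these samples, which may be technical.

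Electrons from succinate enter the chain at complex II, succinate dehydrogenase, which is also an enzyme of the tricarboxylic acid cycle. Complex III passes them from ubiquinol to cytochrome c, and complex IV, cytochrome c oxidase, passes them to oxygen. Complex V, the ATP synthase, uses the proton gradient that complexes III and IV help to build. All subunits of complex II are nuclear, while complexes III, IV and V each join nuclear subunits with mitochondrially encoded ones. Heart muscle is dense in mitochondria, and several nuclear subunits of complex IV have a muscle form that heart and skeletal muscle use in place of a ubiquitous one.

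Promoters are shown first, because many of these genes share the letters of a few factors known to regulate respiratory genes in mammals. RefSeq promoters of GRCm38.p6, from 250 bases before to 50 after each start, were matched to 42 of the 53 genes and gave 46 windows. The letters CCGGAA, which ETS factors such as GABP bind, stood on either strand in 20 of the 46 windows, which is 43.5%, against 14.9% of all 32851 promoters and 28.2% of the 752 promoters of other abundant genes. The letters GCATGCGC, bound by NRF1, stood in 8 of the 46, or 17.4%, against 2.71% and 4.65%. The letters AAGGTCA, bound by oestrogen-related receptors (ERR), stood in 5 of the 46, or 10.9%, against 4.72% and 4.12%. Both the ETS and the NRF1 letters were found in 5 of the genes. The first 4 sequences below come from genes that hold both, and the last 2 from muscle forms of complex IV whose whole windows hold none of the 3. The ETS, NRF1 and ERR letters stood in 19, 8 and 5 of the 42 genes. Lacking all 3 is thus not particular to the muscle forms. The sequences were picked for holding or lacking the letters. Each runs 5′ to 3′ on the gene's strand, with the first 4 from 180 bases before to 4 bases after the start and the last 2 ending at the start. Capitals mark ETS or NRF1 letters on either strand.
Sdhb, chr4:140961091-140961274, plus strand: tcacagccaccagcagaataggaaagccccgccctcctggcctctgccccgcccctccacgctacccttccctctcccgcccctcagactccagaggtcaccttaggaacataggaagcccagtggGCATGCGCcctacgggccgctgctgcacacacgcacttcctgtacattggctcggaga
Uqcr11, chr10:80406818-80407001, minus strand: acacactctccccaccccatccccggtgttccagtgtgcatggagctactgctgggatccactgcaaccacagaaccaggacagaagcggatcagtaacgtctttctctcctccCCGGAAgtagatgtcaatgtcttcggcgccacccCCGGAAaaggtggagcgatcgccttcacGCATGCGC
Cox6a1, chr5:115348955-115349138, minus strand: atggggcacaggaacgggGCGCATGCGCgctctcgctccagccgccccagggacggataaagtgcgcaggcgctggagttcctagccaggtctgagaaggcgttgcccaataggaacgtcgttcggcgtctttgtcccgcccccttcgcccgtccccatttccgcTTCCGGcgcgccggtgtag
Atp5k, chr5:108434396-108434579, minus strand: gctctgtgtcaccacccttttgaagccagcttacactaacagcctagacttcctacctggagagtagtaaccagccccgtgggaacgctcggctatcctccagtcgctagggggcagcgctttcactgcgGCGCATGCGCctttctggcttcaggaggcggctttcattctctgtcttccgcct
Cox7a1, chr7:30183991-30184170, plus strand: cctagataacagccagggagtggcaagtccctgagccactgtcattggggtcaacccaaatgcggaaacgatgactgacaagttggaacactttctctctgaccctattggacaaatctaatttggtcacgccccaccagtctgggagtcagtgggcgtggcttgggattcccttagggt
Cox8b, chr7:140900447-140900626, minus strand: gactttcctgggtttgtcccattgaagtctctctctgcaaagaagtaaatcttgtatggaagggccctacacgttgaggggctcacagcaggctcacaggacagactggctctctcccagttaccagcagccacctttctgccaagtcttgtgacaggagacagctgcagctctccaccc
In Cox6a1 and Atp5k the NRF1 letters overlap on both strands and make a run of 10 capitals. Sdhb also holds ETS letters from base 7 after its start, and Atp5k holds ETS letters from base 14 and ERR letters from base 24 after its start, all outside the printed stretch. A match describes letters, and no binding was measured. The windows of these genes were richer in G and C than most, with a median GC content of 59.7% over 150 bases against 54.0% for all promoters. Their median count of CG steps over the same bases was 11 against 4. The ETS and NRF1 letters each hold a CG step, and the shares above were not matched for this.

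Values are FPKM, fragment counts divided by transcript length and library size, so levels can be compared between genes. Each of the authors' deposited tables holds a single FPKM value for each group, with no values of single samples. No SD can be given, and the depth per sample is unknown. One table compares 7wkKO with 7wkWT and the other 9wkKO with 7wkKO. Both contain the same 7wkKO samples, whose values for the 51 tested genes differed between the tables by a median of 0.805%. The 7wkKO levels below are those of the 7 week table. A fold is the log2 of the quotient of both group values in a comparison, and p and q are those of the deposited Cuffdiff test, with q adjusted by the authors over all genes tested. A gene is called changed at q under 0.05. The standard error (SE) of a fold is the fold divided by the deposited test statistic, and 95% intervals were built from it. The deposited p-values are smaller than that statistic implies, by a median factor of 1.74 in the normal deviate over 10752 genes at 7 weeks. For that reason the intervals of genes with p under 0.05 can still hold 0.

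Egfr itself was listed at an FPKM of 1.20, 1.64 and 1.59 in 7wkWT, 7wkKO and 9wkKO (q = 0.379 at 7 weeks in the authors' deposited table), and was thus not lower in the libraries labelled knockout. All 7 cardiomyocyte markers examined were present, and their summed FPKM was 60128 in 7wkWT, 54193 in 7wkKO and 54448 in 9wkKO. The 5 endothelial markers summed to 437, 346 and 469 in the same order, the 6 fibroblast markers to 739, 797 and 675, the 4 smooth muscle markers to 156, 179 and 211, and the 5 macrophage markers in the tables to 184, 162 and 194. The 4 erythroid markers in the tables summed to 62.1, 50.7 and 61.9. Of all these markers Kdr, Emcn and Alas2 were called higher and Lum lower from 7 to 9 weeks, and none was called at 7 weeks. The 5 skeletal muscle markers summed to at most 1.43 in any group, with Myh4 listed at 0 in all 3 groups. The 3 testis markers summed to at most 0.194, with Prm1 and Tnp1 listed at 0. The 3 brown fat markers summed to 32.4, 35.5 and 37.9, nearly all of it from Cidea, while Ucp1, which defines the type, was listed at 0 in both 7 week groups and 0.0149 in 9wkKO. The endothelial, macrophage and erythroid sums were lowest in 7wkKO, as were many of the values below. The cardiomyocyte sum of 7wkKO was 54621 in the table that also holds 9wkKO, above the 54448 of 9wkKO. Its order against 9wkKO thus depends on which 7wkKO value is taken. Single genes weigh heavily in some sums, such as Myl2 (24956 in 7wkWT) for cardiomyocytes and Lyz2 (147) for macrophages. Of the 7 cardiomyocyte markers 4 were higher and 3 lower in 7wkKO than in 7wkWT. The part of cell types in the values below was not tested. Fewer cells of a type and less RNA per cell cannot be told apart in such samples.

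The genes of complexes II to V were among the most abundant in these hearts. Of the 53, 30 had an FPKM of at least 1000 in 7wkWT, out of 95 such rows in the whole table, 13 lay from 100 to 1000, and 10 lay under 100. Together they held 12.6% of the FPKM summed over all gene rows in 7wkWT, 11.3% in 7wkKO and 12.0% in 9wkKO. Of these genes 51 were tested by the authors in both comparisons. The 2 that were not are Cox7b2, listed at 0.148, 0.262 and 0.0753 in 7wkWT, 7wkKO and 9wkKO, and Cox8c, listed at 0 throughout. Both encode forms of complex IV subunits known from testis.

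**Figure D1:**
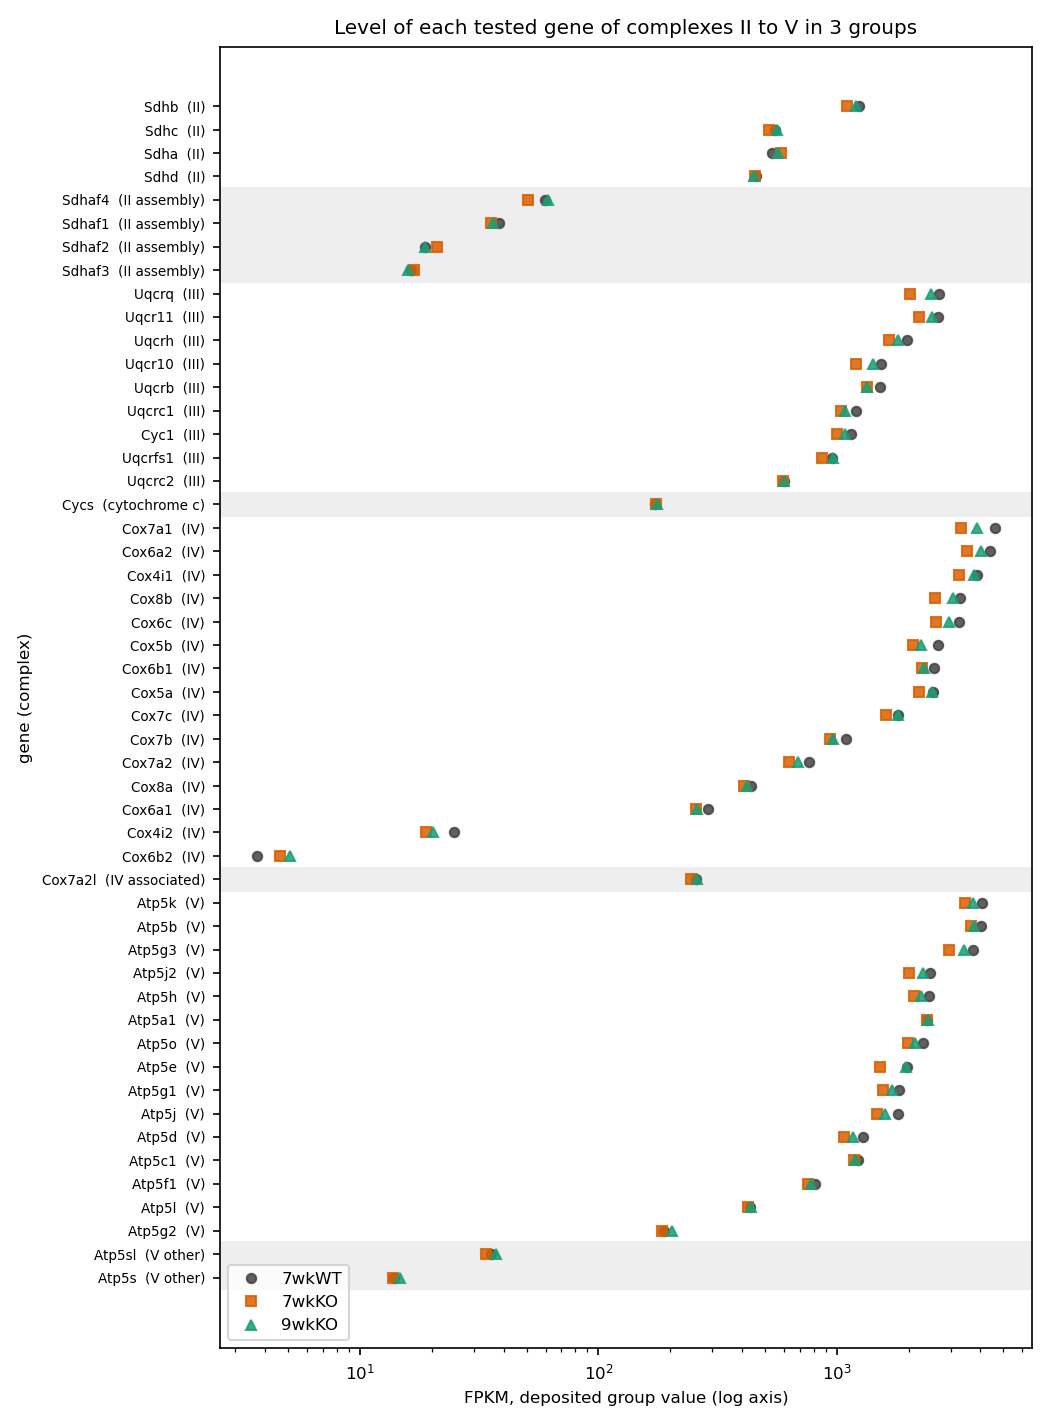
FPKM of each of the 51 tested genes on a log axis, ordered within each complex by the 7wkWT level, with 1 deposited group value for 7wkWT (circles), 7wkKO (squares) and 9wkKO (triangles). Subunits of complexes III, IV and V reach 2674, 4611 and 4078 in 7wkWT, those of complex II reach 1236, and within most rows the 3 symbols lie close together with the 7wkKO square furthest left.

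At 7 weeks no gene of complexes II to V was called changed, 0 of 51 at q under 0.05, where 2.37% of all 11987 tested genes were called. In value, 46 of the 51 were below wild type in 7wkKO and 5 were above it, and the median fold was -0.19 on the log2 scale, against 6007 of 11987 genes below 0 and a median of -0.00 over all tested genes. That direction is shared by other abundant genes with short transcripts, and centring on those genes leaves 25 of 51 below 0. Those genes all have a main transcript under 1000 bases, while 21 of the 51 have longer ones. The centring is thus not matched for length. With no adjustment 6 genes had p under 0.05, all with lower values in 7wkKO, namely Cox7a1, Cox8b, Cox5b, Uqcrq, Uqcr10 and Atp5e. Over all tested genes 11.3% had p under 0.05, 5.25% being lower and 6.08% higher. The 6 lower ones made up 11.8% of the 51, where 33 of the 236 other abundant genes with short transcripts were lower with such a p. The 95% interval held 0 for all 51.

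From 7 to 9 weeks in the knockout none was called either, 0 of 51, against 4.66% of 12046 tested genes. In value 46 were above 7wkKO and 5 below it in 9wkKO, with a median fold of 0.10 against 0.01 over all tested genes, of which 46.9% were below 0. Centring on other abundant genes with short transcripts puts 32 of 51 below 0, again with 21 of the 51 longer than that reference. Only Atp5e had p under 0.05, with a higher value in 9wkKO, 1 of 51, where 12.9% of all tested genes had such a p, 6.53% being higher and 6.38% lower. The 95% interval again held 0 for all 51. Because 7wkKO stands in both comparisons, a low 7wkKO value gives a fold below 0 in the first and above 0 in the second, and the relation between them was not tested. Set across the tables as the sum of both folds, which no deposited test covers, 41 of the 51 were below 7wkWT in 9wkKO and 10 above, with a median of -0.09 and a range from -0.30 to 0.45. The same count over all tested genes was not made here. Other abundant genes with short transcripts had median folds of -0.19 and 0.12 in the 2 comparisons, so this direction cannot be called particular to complexes II to V.

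**Figure D2:**
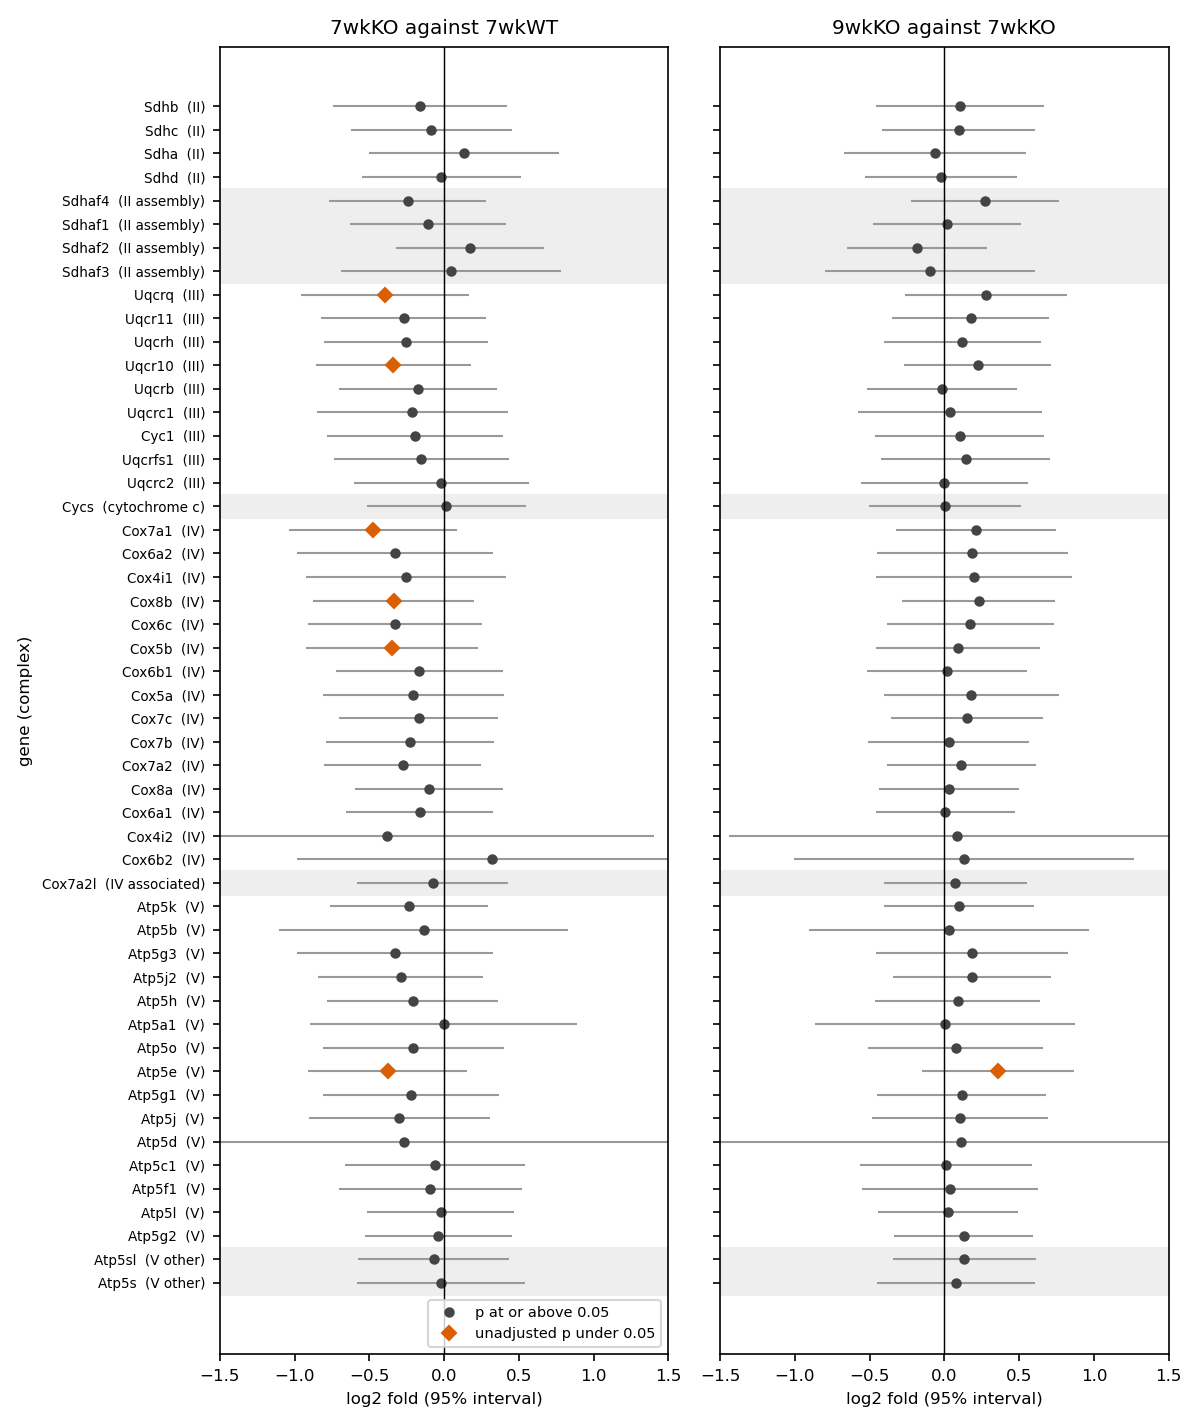
Log2 fold of each tested gene with its 95% interval from the deposited statistic, for 7wkKO against 7wkWT (left) and 9wkKO against 7wkKO (right), with diamonds for an unadjusted p under 0.05 and intervals past ±1.5 running off the axis. On the left 46 of 51 points lie below 0 and on the right 46 of 51 lie above it, and every interval crosses 0. Centring on other abundant genes with short transcripts puts 25 and 32 of the 51 below 0, although 21 of the 51 have longer transcripts than that reference.

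Complex II stood near wild type. Its 4 subunit genes had a median fold of -0.05 at 7 weeks and 0.04 from 7 to 9 weeks, and none had p under 0.05 in either comparison. The direction of their folds at 7 weeks depended on the scale, with 3 of the 4 below 0 as deposited and 0 of the 4 when centred on other abundant genes with short transcripts. Between 7 and 9 weeks 2 of the 4 were below 0 as deposited and all 4 with that centring. The main transcripts of the 4, from 1142 to 3171 bases, are all longer than any in that reference. The centring was thus not matched for length. Other abundant genes with transcripts of at least 2000 bases had median folds of 0.03 and -0.02 in the 2 comparisons. Sdha, the flavoprotein that oxidises succinate, was listed at 532, 584 and 565 in 7wkWT, 7wkKO and 9wkKO. Its fold at 7 weeks was 0.13 (SE 0.32) with a deposited q of 0.913, and it was the only subunit gene of the complex whose value was higher in 7wkKO. Sdhb, the iron-sulfur subunit and the most abundant of the 4, was listed at 1236, 1106 and 1198 in the same order, with folds of -0.16 (SE 0.30) and 0.10 (SE 0.29). Sdhc and Sdhd, which anchor the enzyme in the membrane and bind ubiquinone, were close in value across the groups. Sdhc was listed at 553, 521 and 561. Sdhd was listed at 460, 454 and 451, and its folds were -0.02 in both comparisons. The 4 assembly factors of complex II, Sdhaf1 to Sdhaf4, were far less abundant, from 16.3 for Sdhaf3 to 60.0 for Sdhaf4 in 7wkWT, and their folds at 7 weeks ran from -0.24 to 0.17, with 2 below 0 and 2 above.

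All 9 tested subunit genes of complex III had lower values in 7wkKO than in 7wkWT, with a median fold of -0.21, although centring on other abundant genes with short transcripts leaves 5 of the 9 below 0. In 9wkKO 8 of the 9 had higher values than in 7wkKO, with a median of 0.12, and the same centring leaves 5 above 0. The 4 most abundant genes, all for small subunits, stood furthest from wild type. Uqcrq, which lies next to cytochrome b, was listed at 2674, 2034 and 2490 in 7wkWT, 7wkKO and 9wkKO (chromosome 11, 53428948 to 53430831). Its 7wkKO value was the lowest of the 3, and its fold at 7 weeks was -0.39 (SE 0.29; deposited p 0.0173, q 0.263), followed by a fold of 0.28 (SE 0.28) with a p of 0.0819. Uqcr10, another small subunit, was listed at 1527, 1206 and 1419 (chromosome 11, 4701968 to 4704344). Its fold at 7 weeks was -0.34 (SE 0.27; deposited p 0.0272, q 0.328). Uqcr11, whose promoter is shown above with both ETS and NRF1 letters, was listed at 2662, 2206 and 2515, a fold of -0.27 (SE 0.28) at 7 weeks and 0.18 (SE 0.27) after it. Uqcrh, the hinge protein that helps cytochrome c to dock, was listed at 1975, 1654 and 1813.

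The remaining subunit genes of complex III differed less in value at 7 weeks than the small subunits described above. Among them Uqcrc1, a core protein, was listed at 1207, 1041 and 1077 in 7wkWT, 7wkKO and 9wkKO. Its fold at 7 weeks was -0.21, against -0.18 for Uqcrb and -0.15 for Uqcrfs1. Cyc1, the haem protein cytochrome c1, was listed at 1147, 1002 and 1084 in 7wkWT, 7wkKO and 9wkKO, with folds of -0.19 (SE 0.30) and 0.10 (SE 0.29). Uqcrc2, a core protein and the least abundant subunit gene, was listed at 602, 594 and 599, so that its folds of -0.02 and 0.00 were close to 0. Cycs, the mobile electron carrier cytochrome c, was listed at only 172, 174 and 176. Its folds were 0.01 (SE 0.27) and 0.00 (SE 0.26), and it was thus nearly level across the 3 groups while its FPKM lay below that of every tested subunit gene of complex III.

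Complex IV spanned the widest range of levels in 7wkWT. There the median over its 15 tested subunit genes was an FPKM of 2542, against 543 for complex II, 1514 for complex III and 1962 for complex V, and the range ran from 3.69 for Cox6b2 to 4611 for Cox7a1. At 7 weeks 14 of the 15 had a lower value in 7wkKO, with a median fold of -0.25, and 10 of the 15 when centred on other abundant genes with short transcripts. Between 7 and 9 weeks all 15 had a higher value, with a median of 0.13, and 8 of the 15 with that centring. Cox7a1, the muscle form of subunit VIIa, was listed at 4611, 3314 and 3872 in 7wkWT, 7wkKO and 9wkKO (chromosome 7, 30184171 to 30186030). It had the largest difference at 7 weeks among the tested genes of complexes II to V, a fold of -0.48 (SE 0.29; deposited p 0.0035, q 0.0978) or -28.1%. Its interval ran from -1.04 to 0.09 and held 0. Its fold between 7 and 9 weeks was 0.21 (SE 0.27), with a p of 0.181 and q of 0.718, and the 9wkKO value lay between the other two.

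The other muscle forms were also lowest in 7wkKO. Cox8b, the muscle form of subunit VIII, was listed at 3272, 2588 and 3058 in 7wkWT, 7wkKO and 9wkKO (chromosome 7, 140898942 to 140900446). Its fold at 7 weeks was -0.34 (SE 0.28; deposited p 0.0324, q 0.358), and 0.23 (SE 0.26) after it. Cox6a2, the muscle form of subunit VIa, was listed at 4400, 3505 and 4020, a fold of -0.33 (SE 0.34, deposited p 0.0802) at 7 weeks and 0.19 (SE 0.33) after it. The ubiquitous counterparts were much less abundant and differed less in value. Cox7a2 was listed at 762, 630 and 687, a fold of -0.28 (SE 0.27) at 7 weeks. Cox8a was listed at 438, 409 and 421, a fold of -0.10 (SE 0.25). Cox6a1, which carries both ETS and NRF1 letters in the promoter shown, was listed at 288, 257 and 260, a fold of -0.16 (SE 0.25). The median fold of the 3 muscle forms at 7 weeks was thus -0.34 and that of their counterparts -0.16, and from 7 to 9 weeks 0.21 and 0.03. All 3 muscle forms kept their side of 0 in both comparisons under each centring tried. This is not particular to them. Cox4i1, with folds of -0.25 and 0.20, and Cox6c, with -0.33 and 0.17, also lie beyond the largest centring values of -0.19 and 0.12. Cox5b, with 0.09 from 7 to 9 weeks, does not. Folds also varied with level, as described below.

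Set as shares of each pair's summed FPKM, the muscle forms dominated in every group. Cox6a2 held 93.9% of its pair in 7wkWT, 93.2% in 7wkKO and 93.9% in 9wkKO. Cox7a1 held 85.8%, 84.0% and 84.9%, and Cox8b held 88.2%, 86.4% and 87.9%. Each share was lowest in 7wkKO, by at most 2 percentage points. In ratios, Cox6a2 stood 15.3 times above Cox6a1 in 7wkWT, 13.7 times in 7wkKO and 15.5 times in 9wkKO. Cox7a1 stood 6.05, 5.27 and 5.64 times above Cox7a2, and Cox8b 7.47, 6.33 and 7.26 times above Cox8a. The fold of the muscle form minus that of its counterpart at 7 weeks was -0.16 (SE 0.42) for Cox6a2, -0.20 (SE 0.39) for Cox7a1 and -0.24 (SE 0.37) for Cox8b, where the SE treats both folds as independent. None of the 3 differences exceeded its SE, which rests on the deposited statistic and is wider than the deposited p-values imply. Between 7 and 9 weeks the same differences were 0.18 (SE 0.40), 0.10 (SE 0.37) and 0.20 (SE 0.35), again each within its SE.

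**Figure D3:**
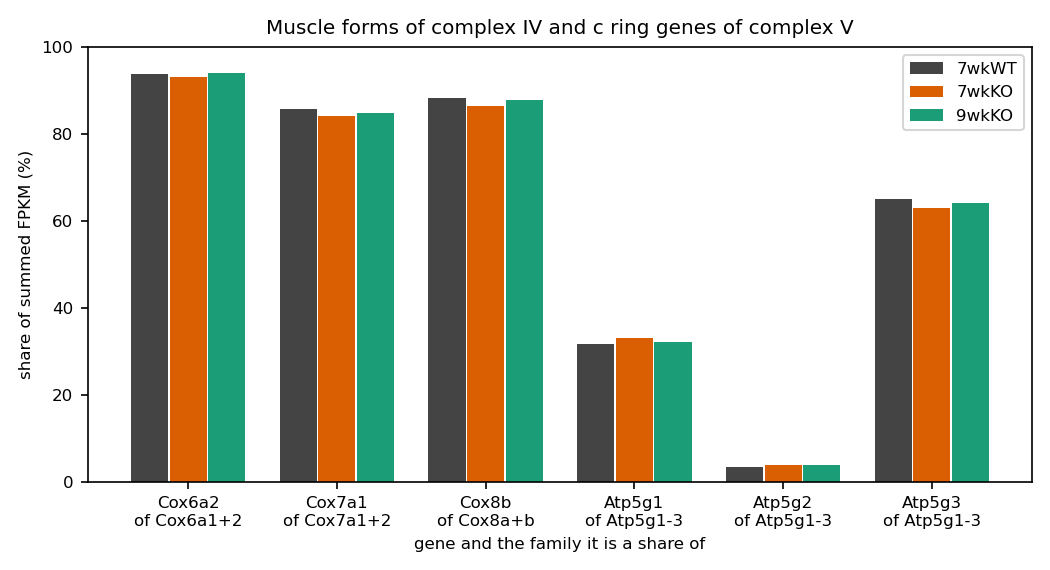
Share of a gene in the summed FPKM of its family, in percent, for the muscle forms of complex IV and the c ring genes of complex V, with 1 bar per group and no error because each group has 1 deposited value. The muscle forms hold from 84.0% to 93.9% in all groups, and Atp5g3 holds the largest share of the c ring genes, from 63.0% to 65.0%.

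In the other families of complex IV forms 1 gene held nearly all of the FPKM. Cox4i1, the main form of subunit IV, was listed at 3885, 3256 and 3767 in 7wkWT, 7wkKO and 9wkKO, with folds of -0.25 (SE 0.34) and 0.20 (SE 0.33). Cox4i2, the form known from lung and from responses to low oxygen, was listed at 24.8, 19.0 and 20.2, and made up 0.633%, 0.579% and 0.534% of the pair. Cox6b1 was listed at 2554, 2276 and 2321. Cox6b2, a form known from testis, was listed at 3.69, 4.60 and 5.07, no more than 0.218% of its pair in any group. It was the only tested complex IV gene whose value was higher in 7wkKO, with a fold of 0.32 (SE 0.66). Cox7b, the form of subunit VIIb paired with the untested Cox7b2, was listed at 1094, 934 and 960. Cox5b, a zinc-binding subunit that faces the matrix, was listed at 2663, 2095 and 2248 (chromosome 1, 36691487 to 36693388). Its 7wkWT value stood above both knockout values, and its fold at 7 weeks was -0.35 (SE 0.29; deposited p 0.0424, q 0.408), and 0.09 (SE 0.28) after it. The remaining 3 subunit genes, Cox5a, Cox6c and Cox7c, all for structural subunits, had folds from -0.33 to -0.17 at 7 weeks and from 0.15 to 0.18 after it. Cox7a2l, which links complexes III and IV into supercomplexes, was listed at 257, 244 and 259.

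In complex V all 15 tested subunit genes had a lower value in 7wkKO than in 7wkWT, with a median fold of -0.21, and 9 of the 15 when centred on other abundant genes with short transcripts. All 15 had a higher value in 9wkKO than in 7wkKO, with a median of 0.10, but only 4 of the 15 with that centring. The alpha and beta subunits of the F1 head, which makes ATP, stood near wild type. Atp5b, the catalytic beta subunit, was listed at 4018, 3659 and 3777 in 7wkWT, 7wkKO and 9wkKO, a fold of -0.13 (SE 0.49) at 7 weeks. Its partner gene for the alpha subunit, Atp5a1, was listed at 2381, 2378 and 2402, the closest to 0 of all tested genes of complexes II to V at 7 weeks with a fold of -0.00 (SE 0.46). Atp5e, the small epsilon subunit of the central stalk, was listed at 1962, 1512 and 1953 (chromosome 2, 174461075 to 174464101). Its 7wkKO value stood alone below 2 nearly equal values, and its fold at 7 weeks was -0.38 (SE 0.27; deposited p 0.0170, q 0.259). Its fold between 7 and 9 weeks was 0.36 (SE 0.26; deposited p 0.0168, q 0.202), so that neither comparison passed the adjusted threshold.

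The c ring, which turns as protons pass, is encoded by Atp5g1, Atp5g2 and Atp5g3, whose mature proteins are identical and whose import sequences differ. Atp5g3 was listed at 3726, 2968 and 3404 in 7wkWT, 7wkKO and 9wkKO, with a fold of -0.33 (SE 0.34) at 7 weeks. Atp5g1 was listed at 1819, 1560 and 1704, with a fold of -0.22 (SE 0.30). Atp5g2, the least abundant tested subunit gene of complex V, was listed at 189, 184 and 203, with a fold of -0.04 (SE 0.25). The order of the 3 genes was the same in every group. Atp5g3 held 65.0%, 63.0% and 64.1% of their sum, Atp5g1 31.7%, 33.1% and 32.1%, and Atp5g2 3.30%, 3.91% and 3.83%.

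Atp5k, a membrane subunit that helps the synthase to dimerise and whose promoter is shown above, was the most abundant gene of complex V in 7wkWT at 4078, with 3459 in 7wkKO and 3731 in 9wkKO. Its folds were -0.24 (SE 0.27) and 0.10 (SE 0.26). The 7 stalk and membrane subunits together had a median fold of -0.21 at 7 weeks, from -0.30 to -0.02, and of 0.09 after it. Atp5s and Atp5sl, which entered by symbol and were not counted as subunits of the synthase, were listed at 13.9 and 35.3 in 7wkWT. Their folds at 7 weeks were -0.02 and -0.07.

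For 4 of the 53 genes the deposited locus was at least 3 times as long as the annotated gene, 93.6 times for Atp5d, 34.0 times for Cox6a2, 7.14 times for Cox4i2 and 4.63 times for Atp5j. Atp5d and Atp5j were singled out for this after their values were seen. Such a locus spans more than the annotated gene. The SE at 7 weeks was 1.15 for Atp5d and 0.91 for Cox4i2, against a median of 0.29 over the tested genes, so a fold of either could be measured only coarsely. At the isoform level the 53 genes had 70 rows, and 9 genes had more than 1. Of the 63 isoforms tested at 7 weeks 0 had q under 0.05, where 1.42% of all tested isoforms did, and 6 had an unadjusted p under 0.05 by Cuffdiff. Of the 62 tested from 7 to 9 weeks 0 had q under 0.05, against 2.93% of all, and 1 had such a p. The share of all tested isoforms with such a p was not counted here. Over all tested genes it was 11.3% at 7 weeks and 12.9% from 7 to 9 weeks.

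Folds at 7 weeks varied with the level and length of the transcripts. Across the 51 tested genes Spearman's rho between the fold and the 7wkWT level was -0.65, and between the fold and the length of the main transcript it was 0.55. From 7 to 9 weeks the values were 0.47 with the 9wkKO level and -0.51 with length. These are descriptions across genes that share the same libraries. The level enters the fold, so rho with the level is in part built in. The 30 tested genes with a main transcript under 1000 bases had a median fold of -0.26 at 7 weeks, 29 of them below 0, and the 21 with longer transcripts had -0.08, 17 of them below 0. Between 7 and 9 weeks the medians were 0.13 and 0.03.

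The same held for abundant genes outside complexes II to V. Among the 745 other tested genes with a mean FPKM of at least 100, the median fold at 7 weeks was -0.10, with 507 below 0. The 236 of them with a main transcript under 1000 bases had a median of -0.19, with 219 below 0. The 252 with at least 2000 bases had a median of 0.03, with 105 below 0. All 51 tested genes of complexes II to V, of any length, also had -0.19, while the 30 short ones, of any level, had -0.26. Of the 236, the 53 cytosolic ribosomal protein genes were all below 0, with a median of -0.18, as were the 26 genes whose symbols start with Nduf, mostly complex I subunits, with a median of -0.25. The 157 that belong to neither had a median of -0.19, with 140 below 0. From 7 to 9 weeks the 234 short ones had a median of 0.12, with 25 below 0, and the 259 long ones -0.02. Folds below 0 at 7 weeks thus made up 92.8% of these other short, abundant genes. They made up 90.2% of all tested genes of complexes II to V and 96.7% of the 30 short ones. RNA quality and fragment length per sample were not analysed here, and their part was not tested.

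**Figure D4:**
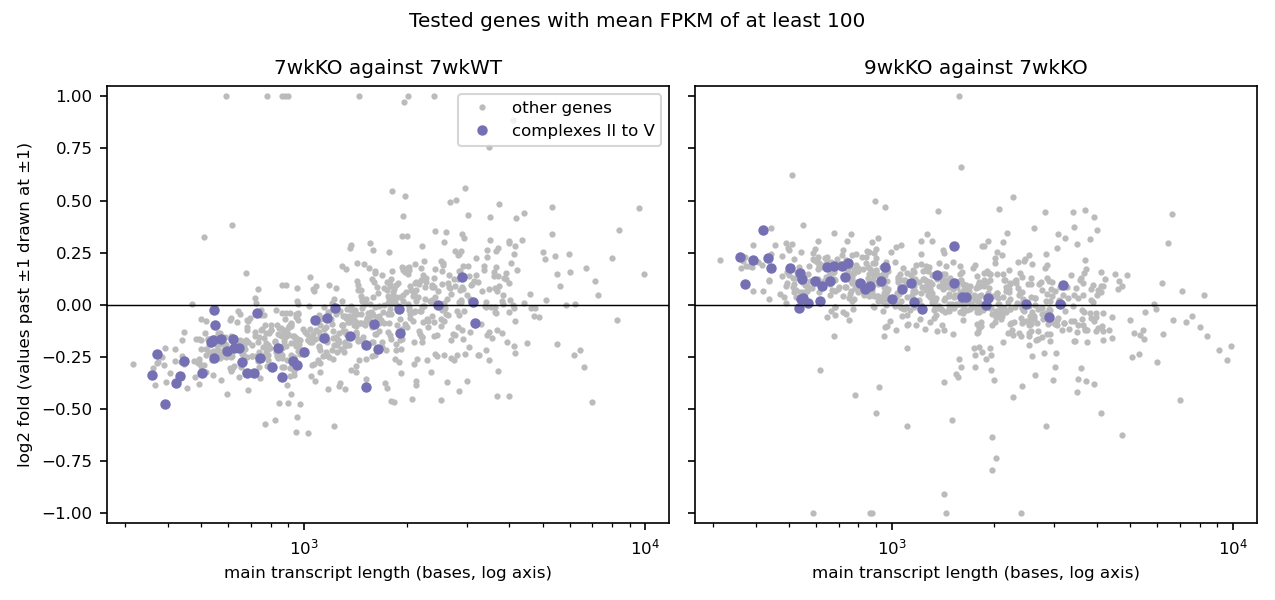
Log2 fold against the length of the main transcript (bases, log axis) for tested genes with a mean FPKM of at least 100, for 7wkKO against 7wkWT (left) and 9wkKO against 7wkKO (right), with genes of complexes II to V as large points and all others as small grey ones, and folds past ±1 drawn at ±1. On the left short transcripts lie mostly below 0 (median -0.19 for 236 other genes under 1000 bases) and long ones around it (0.03 for 252), on the right the order is the opposite (0.12 and -0.02), and the large points lie within the grey ones.

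Related genes outside the symbol rule were set beside them. Of 4 further genes, the subunit genes Ndufa4, Usmg5 and 2010107E04Rik and the ATP synthase inhibitor Atpif1, 0 were called in either comparison, and the 4 had a median fold of -0.31 at 7 weeks, all below 0, and 0.17 after it. Ndufa4, a subunit of complex IV despite its name, was listed at 3288, 2635 and 2896. Usmg5, a small membrane subunit of the synthase, was listed at 1745, 1413 and 1609. Of 31 assembly factors 1 was called at 7 weeks, where 2.37% of all tested genes were, and 0 after it, where 4.66% were. Their median folds were -0.02 and 0.07. The called one is Taco1, which activates translation of the mitochondrially encoded COX1. It was listed at 18.3, 26.8 and 22.5 in 7wkWT, 7wkKO and 9wkKO, and in the authors' deposited table it rose by a fold of 0.55 (SE 0.28) at 7 weeks with q = 0.0333.

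Of 14 regulators of respiratory genes 0 were called at 7 weeks, with a median fold of 0.15. From 7 to 9 weeks 1 was called lower, where 4.66% of all tested genes were called in either direction. That one is Ppargc1a, the coactivator PGC-1alpha, which drives mitochondrial gene expression with ERR, NRF1 and GABP. It was listed at 18.6, 24.9 and 18.0, with a fold of 0.42 (SE 0.25) and a deposited q of 0.0904 at 7 weeks, and fell by 0.48 (SE 0.24) on the log2 scale from 7 to 9 weeks with q = 0.0260. Its value was thus highest in 7wkKO. The genes for the factors whose letters are shown above had an FPKM under 100 in all groups. Nrf1 was listed at 5.80, 4.74 and 5.39 and Gabpa at 12.3, 13.7 and 13.1, and neither was called. Esrra, which encodes ERR alpha, was listed at 81.6, 79.4 and 88.7 and was not called.

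None of the 7 tested genes for ATP export and phosphate import, the 13 of the tricarboxylic acid cycle or the 13 of mitochondrial import and chaperones was called in either comparison. Over all tested genes 2.37% and 4.66% were called. Their median folds at 7 weeks were -0.08, 0.08 and 0.03, and from 7 to 9 weeks 0.13, -0.04 and 0.00. Slc25a4, the heart form of the ADP/ATP carrier, was listed at 8186, 7067 and 7538, and Ckmt2, the mitochondrial creatine kinase of striated muscle, at 2232, 2005 and 2207. Among the cycle genes Mdh2, the mitochondrial malate dehydrogenase, was listed at 1605, 1508 and 1638. The chaperone gene Hspa9 was listed at 273, 301 and 288, and Phb2, a prohibitin of the inner membrane, at 209, 201 and 205. Complex II, which belongs to both the chain and the cycle, had a median fold of -0.05 at 7 weeks, between the -0.21 of complex III and the 0.08 of the cycle genes. The difference between these lists was not tested.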

How the data were processed

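Libraries were poly(A)-selected and stranded, per the labels' protocols. The submitters' processing notes name TopHat2, Cuffdiff and mm10, with no version in the sources used here. Per the file headers, the authors' gene and isoform tables hold 1 FPKM per group, a status, a test statistic (read here as a score), the deposited p-value and the deposited q-value. The deposited fold column held cells that were not numbers, so folds were recomputed as log2 ratios of FPKM with no pseudocount. No test of its own was added. A gene was tested where the deposited status was OK. No column of group values, test statistics, p or q was left unused, while the deposited fold column was not used.

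Members, gene lists and alternatives were chosen with earlier results of these data known. Named genes were the complex II subunits, Cyc1, Cycs, the 3 most and the least abundant subunit of each other complex, tissue forms, genes with p under 0.05 and untested genes. Of other lists they were called genes, or the 2 most abundant. A gene that this rule selects is left unreported. The factors for the printed motifs, the wide loci and a few further members were added after their values were seen. File starts were raised by 1. Transcript lengths are from GENCODE M21 for the isoform with the highest FPKM, and sequences from RefSeq GRCm38.p6, the build that mm10 names. Only the fold, its SE and the adjustment of p were tried on simulated data, and the check of the SE holds by construction. Counts, shares, centring and promoter steps were not tested in this way. Software was Matplotlib 3.10.9, SciPy 1.17.1, pandas 2.3.3, NumPy 2.4.6 and Python 3.11.15. Alternatives were other thresholds on q, p from the statistic alone, readjustment, isoform tables, filters, a pseudocount, centring and subsets of genes.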

Additional observations from a re-analysis of the deposited data

How the results depend on the processing

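Of 62 alternatives over 15 results, 54 gave the same direction and call or a value close to the reported one. A median on its side of 0 counted as close if it moved by at most 0.1, about the size of the 7 to 9 week median. Subsets of genes could add no call where 0 were called, and isoform values summed per gene returned the gene shares. The 54 is thus no measure of robustness by itself. No gene of complexes II to V was called in either comparison under any alternative tried, except that at q under 0.1 in place of 0.05 the count at 7 weeks was 1, Cox7a1. The median fold at 7 weeks was -0.09 when centred on tested genes with FPKM of at least 100, and 9.57e-06 when centred on other abundant genes with a main transcript under 1000 bases, an alternative chosen after seeing the data. The count below 0 was then 25 in place of 46, although 21 of the 51 tested genes have longer transcripts than that reference. From 7 to 9 weeks that centring gave a median of -0.023 in place of 0.10 and 32 genes below 0 in place of 5. The count there was 10 when centred on all tested genes, 18 when centred on those with FPKM of at least 100, and 3 when the 44 tested structural subunits were taken alone. Since the centring values differ by construction, these moves follow from the set chosen as the reference. The shares of the muscle forms were alike from gene and isoform values. Leaving out the genes with a wide locus, also chosen after seeing the data, changed no call. No paired analysis was possible because the tables hold 1 value per group, and for the same reason no replicate could be left out. Group values without a spread limit every comparison. A fold near the median of these genes was smaller than its SE from the deposited statistic, which is wider than the deposited p-values imply.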
